A study of Mus musculus with 2 samples.

Results

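The myosin heavy chain genes of striated muscle were examined in DNase-seq libraries of mouse gastrocnemius. The 9 genes were chosen by symbol, out of 21938 protein-coding genes of the annotation. They are Myh3, Myh2, Myh1, Myh4, Myh8 and Myh13, which stand in a row on chromosome 11 (the fast and developmental cluster), Myh6 and Myh7, which are neighbours on chromosome 14, and Myh7b on chromosome 2. The study has 1 group, the gastrocnemius (the large calf muscle) of B6CASTF1/J males at 14 days of age, the cross of a C57BL/6 with a CAST parent. It comprises 2 libraries that are biological replicates per the labels. The labels name the same donor entry for both and carry the words 3x Males, so the number of animals per library is not known, and replicate 1 was sequenced on 2 instrument models. No condition was contrasted, so no test between conditions was possible. Values are given in the order replicate 1 and replicate 2, and ± is the SD over the libraries (n = 2).

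The enzyme DNase I preferentially cuts DNA that no nucleosome covers, and a peak marks such open chromatin. Within a peak, footprints are short stretches that escaped cutting and are taken as bases shielded by a protein. Each myosin heavy chain forms the motor head and the rod of the thick filament, and the isoform in a fibre sets how fast it contracts. In the mouse, Myh3 is the embryonic isoform, Myh8 the perinatal one, Myh2, Myh1 and Myh4 the adult fast isoforms of type IIa, IIx and IIb fibres, and Myh13 the isoform of the extraocular muscles. Myh7 is the slow isoform, shared by slow fibres and heart, Myh6 the fast cardiac isoform, and Myh7b a related slow-type gene that hosts the microRNA Mir499. Around and after birth, limb muscle replaces the embryonic and perinatal isoforms with the adult ones. A muscle enhancer region between Myh3 and Myh2, where the long noncoding RNA gene 2310065F04Rik (linc-Myh) lies, has been described as acting on the fast genes of the cluster.

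The libraries held 82498 and 88198 peaks in their strict lists and 138117 and 139545 in their permissive lists, with a median width of 180 bases throughout. Peak signal is the authors' value on a scale that the labels and file headers do not give, and the values under 1000 steps were whole multiples of 0.00557 in replicate 1 and of 0.00459 in replicate 2, within 0.05 of a step. The files give no read totals, so the depth is unknown. The tissue label was checked with promoter markers. A promoter peak, within 1 kb of any annotated start in both strict lists, was present at 10 of 10 skeletal muscle fibre markers, 3 of 8 heart markers (Gata4, Nppb and Hcn4), 6 of 6 smooth muscle and pericyte markers, 3 of 4 fibroblast, 2 of 4 endothelial, 1 of 4 satellite cell, 1 of 3 Schwann cell and 1 of 4 macrophage markers. Of all protein-coding genes 63.4% had such a peak. In such mixed tissue, fewer nuclei of a type and less opening per nucleus cannot be told apart.

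The promoters of the adult fast genes and of Myh8 carry sequence in common. They are printed because these are the genes among which the only promoter peaks of the cluster's members were called. Shown are 250 bases before and 50 after the RefSeq start (GRCm38.p6, plus strand), and capitals mark runs of 14 or more bases that recur in another of the 4 promoters.
Myh1, chr11:67199852-67200151: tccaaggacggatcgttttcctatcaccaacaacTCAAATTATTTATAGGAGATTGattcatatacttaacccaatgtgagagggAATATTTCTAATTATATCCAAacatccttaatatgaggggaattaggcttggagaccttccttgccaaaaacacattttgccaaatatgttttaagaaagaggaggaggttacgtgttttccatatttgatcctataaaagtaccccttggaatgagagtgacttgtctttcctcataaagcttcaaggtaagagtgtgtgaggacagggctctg
Myh2, chr11:67170777-67171076: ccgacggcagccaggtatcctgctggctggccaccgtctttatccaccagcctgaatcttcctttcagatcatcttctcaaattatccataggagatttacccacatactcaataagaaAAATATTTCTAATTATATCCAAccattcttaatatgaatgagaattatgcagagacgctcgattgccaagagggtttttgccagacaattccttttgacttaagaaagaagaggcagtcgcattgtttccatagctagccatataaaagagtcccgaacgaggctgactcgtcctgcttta
Myh4, chr11:67237562-67237861: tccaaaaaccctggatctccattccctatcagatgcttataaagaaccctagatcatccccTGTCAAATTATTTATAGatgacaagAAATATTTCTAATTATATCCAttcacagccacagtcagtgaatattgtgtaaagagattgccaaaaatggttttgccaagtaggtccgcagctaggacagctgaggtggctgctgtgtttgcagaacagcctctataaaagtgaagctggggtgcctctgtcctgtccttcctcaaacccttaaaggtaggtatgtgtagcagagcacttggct
Myh8, chr11:67276874-67277173: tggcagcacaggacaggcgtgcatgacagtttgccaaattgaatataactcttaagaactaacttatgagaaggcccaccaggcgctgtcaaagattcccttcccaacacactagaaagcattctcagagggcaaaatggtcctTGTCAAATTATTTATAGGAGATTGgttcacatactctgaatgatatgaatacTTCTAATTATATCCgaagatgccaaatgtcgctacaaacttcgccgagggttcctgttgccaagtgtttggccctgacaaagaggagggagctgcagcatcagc

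One word of 14 bases, TTCTAATTATATCC, stood in all 4 of these promoters, and in no other of the 32851 RefSeq promoters on either strand. It began at -160 bases from the start in Myh1, -125 in Myh2, -158 in Myh4 and -54 in Myh8. The word was picked because these 4 promoters share it, and how often other words of this length recur among promoters was not computed. The longest run in common was 22 bases between Myh1 and Myh8, 21 between Myh2 and Myh1 and between Myh2 and Myh4, 20 between Myh1 and Myh4, and 17 between Myh4 and Myh8. A MEF2 consensus match, the site type of a myocyte enhancer factor, lay within the shared run upstream of this word in Myh1, Myh4 and Myh8. MEF2 matches were found at 3 of 9 members and at 3.19% of all promoters. The TATA box TATAAA was matched on either strand in 6 of 9 members (Myh3, Myh2, Myh1, Myh4, Myh8 and Myh6) and in 13.6% of all promoters. A match began at -29 bases from the start in Myh3, -32 in Myh1 and -31 in Myh4. The only matches in Myh2 and Myh6 lay after the start, beginning 10 and 1 bases from it, and the only Myh8 match overlapped its MEF2 match. The E-box CANNTG, the site type of the myogenic regulators, was matched in 7 of 9 members and in 72.3% of all promoters. Its MyoD type CAGCTG, which is also an E-box, was found only in Myh4 among the 9 and in 16.3% of all promoters. NFAT sites (GGAAA) were in 4 of 9 members and 61.3% of promoters, TEAD sites (CATTCC) in 4 of 9 and 14.7%, CArG boxes in 2 of 9 and 1.63%, and AP-1 sites (TGANTCA), MAF sites (TGCTGA) and the thyroid hormone response motif AGGTCA each in 1 of 9, against 7.81%, 19.5% and 16.3%. MEF3 (TCAGGTT), NFI and CTCF core motifs were in 0 of 9, against 4.07%, 0.0365% and 3.36%. A match describes the letters and shows no binding.

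Promoter peaks were rare among the members. In the strict lists 1 of 9 members, Myh1, had a peak in both libraries, whereas 63.4% of protein-coding genes did. Taking each library alone, 2 of 9 members had a strict peak in replicate 1 (65.1% of genes) and 1 of 9 in replicate 2 (65.2% of genes). The permissive lists held promoter peaks in both libraries for 4 of 9 members (Myh1, Myh4, Myh8 and Myh7b), against 67.5% of genes.

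Among the adult fast genes, Myh1 had promoter signals of 0.981 and 0.528 (mean 0.754 ± 0.321), the latter at the 38.3 percentile of all genes. On this scale the genes without a peak were tied at 17.4, and 65.2% of genes had a peak in replicate 2, so the Myh1 signal was low among genes with a peak. The Myh1 peaks spanned chr11:67200138-67200253 and chr11:67200147-67200276, with centres 94 and 110 bases after the RefSeq start, just inside the transcribed part. The lowest FDR there was 8.11e-05 and 8.48e-05. Replicate 2 had a further Myh1 peak of 0.463 at chr11:67199725-67199823, with its centre at -328 bases from that start and within 1 kb of the start of the noncoding gene 9430073C21Rik, and no listed base was found there in replicate 1. Myh4 had no strict peak, although its permissive signals of 1.01 and 0.862 were no lower than those of Myh1. These peaks lay across the RefSeq start, with centres at -10 and 2 bases, but their lowest FDR was only 0.0110 and 0.00873. Myh2 was weaker still, with a permissive peak of 0.303 in replicate 2 alone (lowest FDR 0.00849), 68 bases after its start.

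Of the developmental genes, Myh8 had a strict peak of 0.825 in replicate 1 (lowest FDR 1.82e-04) and a permissive peak of 0.427 in replicate 2 (lowest FDR 0.0117). Both lay upstream of the gene, with centres at -324 and -336 bases from the start. Myh3 had no peak in either list and no base with an FDR under 0.05 within 1 kb of its start. The same was true of Myh13, and of Myh6 and Myh7. Myh7b had no strict promoter peak either. Its permissive signals of 1.13 and 0.395 (lowest FDR 7.02e-04 and 0.00597) lay near an internal annotated start, with centres 18206 and 18188 bases after the start used by RefSeq.

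**Figure D1:**
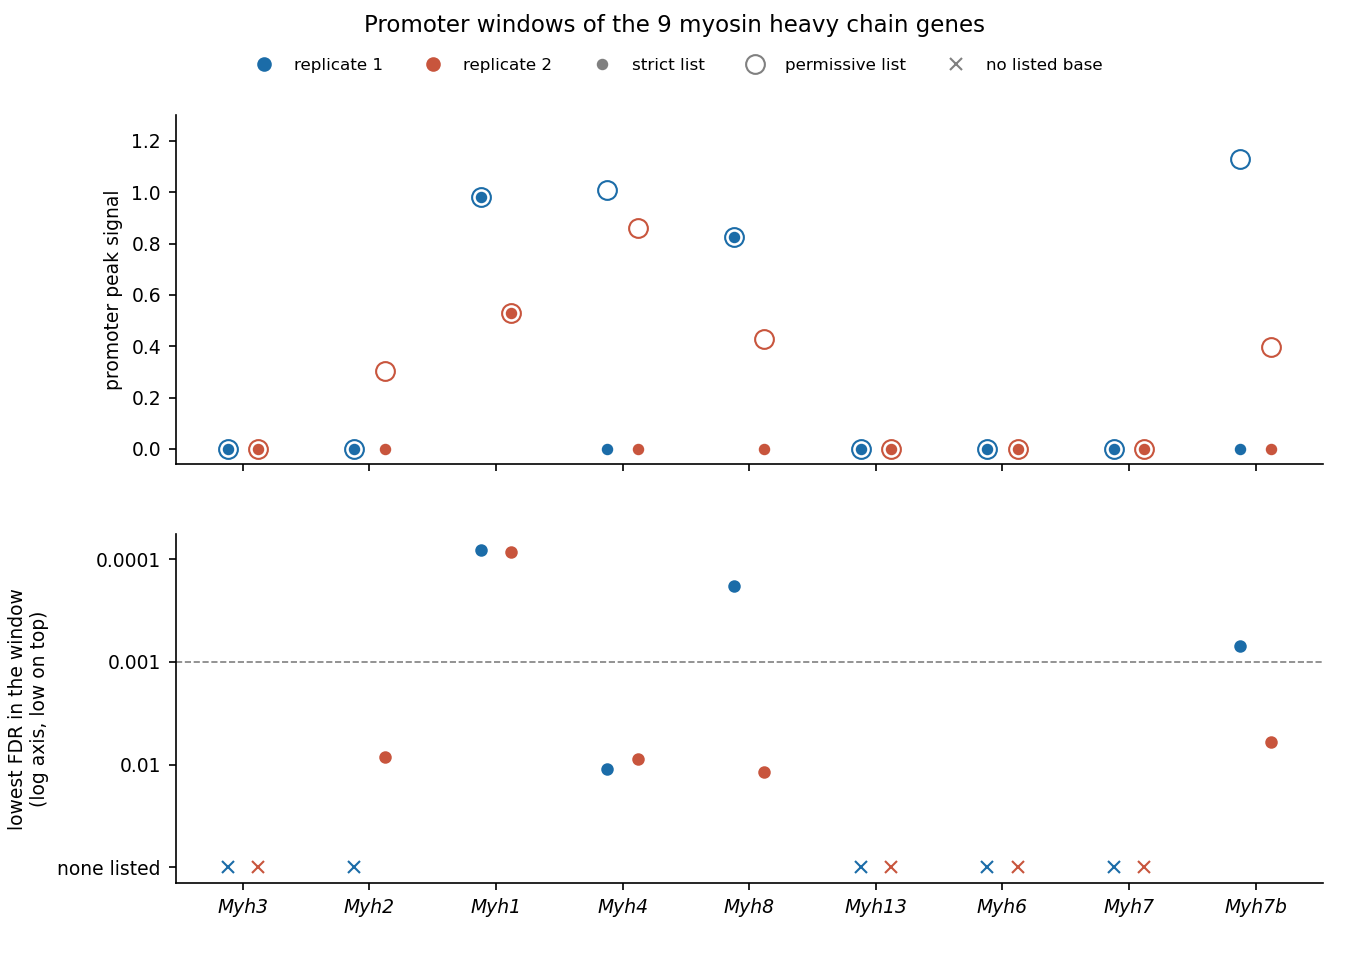
Peak signal (top) and lowest FDR per base (bottom, log axis, lower values on top) in the promoter window of each of the 9 genes, with 1 point per library; filled points are the strict list, open circles the permissive list, 0 means no peak, crosses mark windows with no listed base, and the dashed line is an FDR of 0.001. Myh1 has strict peaks in both libraries (0.981 and 0.528), Myh8 in replicate 1 alone (0.825), and Myh3, Myh13, Myh6 and Myh7 have none in either list.

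Genes related in function are given beside the 63.4% of all genes with a promoter peak in both libraries. Of the other myosin II heavy chain genes, 4 of 5 had a promoter peak in both libraries. Signals at the non-muscle isoforms were 17.4 and 8.72 at Myh9, 17.2 and 6.31 at Myh10, and 6.87 and 2.50 at Myh14. Myh15 had no promoter peak. Of 18 genes for folding, assembly and partners of the thick filament, 16 were open in both libraries, led by Myom1 (M-band protein, 21.9 and 8.47), Hsp90aa1 (chaperone of myosin folding, 15.1 and 7.84) and Mybpc2 (fast myosin-binding protein C, 9.98 and 5.05). The exceptions were Mybpc3, with no peak, and the light chain gene Myl2, with 0.711 in replicate 2 alone. Of 24 regulators of fibre-type myosin genes, 23 were open in both, among them the transcription factor genes Mafa (15.6 and 5.70) and Mef2a (11.3 and 6.50). Myf6, a late myogenic regulator, had 0.831 in replicate 1 alone. The median number of shared distal regions within 50 kb was 5, 5 and 6.5 in these 3 lists, against 2 over all genes.

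Away from promoters, the fast and developmental cluster held 18 shared regions, that is, regions outside the promoter windows of all protein-coding genes with strict peaks in both libraries, within 50 kb of an annotated start of a member. Of these, 14 were intergenic with respect to protein-coding genes and 4 intronic. Among the 14, chr11:67112861-67113060 and chr11:67114941-67115260 lay inside the noncoding gene 2310065F04Rik. Over the 386 kb window the 18 regions came to 4.66 per 100 kb. Counted in each library alone, the density was 5.95 and 8.28 per 100 kb (mean 7.12 ± 1.65), and the 32 regions of replicate 2 included 8 weak ones in Myh4 that are described with the gene bodies. Without these 8, replicate 2 had 24 regions, or 6.21 per 100 kb. The slow and cardiac loci had 4 shared regions in 150 kb around Myh6 and Myh7 (2.66 per 100 kb) and 5 in 122 kb around Myh7b (4.09 per 100 kb). Within 50 kb of the starts of all protein-coding genes the density was 2.23 per 100 kb. The density of the cluster was 1.41 times that of the slow and cardiac loci together, 3.30 per 100 kb. This order held only outside promoter windows, which held 2 further shared regions in the cluster, 6 at Myh6 and Myh7 and 6 at Myh7b. With them the cluster had 20 shared regions in 386 kb, against 10 in 150 kb and 11 in 122 kb, a lower density than at either slow and cardiac locus. The ratio of 1.41 lay between 1.06 and 2.05 over the alternative settings, none of which counted promoter windows. The lowest value came where peaks had to overlap by 50% and the highest in replicate 2 alone, where it was 1.54 without the peaks in the Myh4 body.

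The regions of the cluster were gathered in the gap between Myh3 and Myh2. This gap of 68.7 kb held 11 of the 18, or 16.0 per 100 kb, and 8.59% and 5.54% of its bases were listed with an FDR under 0.05. The Myh3 gene body held 2 more, Myh1 and Myh13 bodies 1 each beyond the promoter, and no shared region lay in the bodies of Myh2, Myh4 or Myh8 or in the gaps from Myh2 to Myh8. Myh3 and Myh2 had the most regions within 50 kb of their starts, 9 and 7, at the 95.0 and 89.8 percentiles of all genes. Myh13 had 4, Myh1 had 3, and Myh4 and Myh8 had 1 each (33.9 percentile), whereas genes had 2.90 on average. The rank of Myh4 and Myh8 turned on the weak Myh4 peaks of replicate 2. In that library alone both stood at the 91.6 percentile, and at the 36.4 percentile with the peaks in the Myh4 body left out. Myh7b had 5 and Myh6 and Myh7 had 3 each, some of them shared between neighbours.

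**Figure D2:**
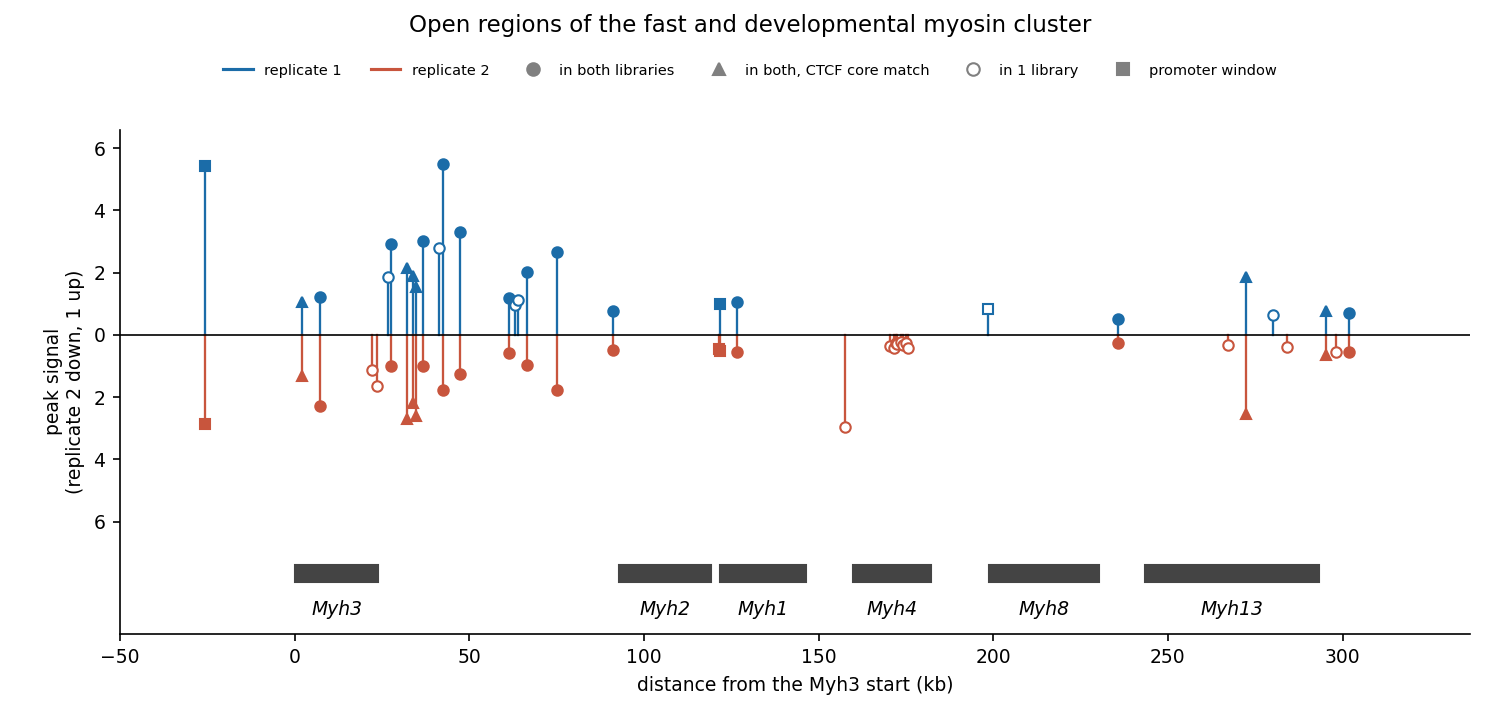
Peak signal of every strict region of the fast and developmental cluster by distance from the Myh3 start in kb, replicate 1 drawn upward and replicate 2 downward; filled symbols are in both libraries, open ones in 1, squares lie in a promoter window (the leftmost is that of Sco1 and Adprm), triangles carry a CTCF core match, and grey bars are the gene bodies. In replicate 1 the symbols between Myh3 and Myh2 reach 5.50 and the Sco1 and Adprm promoter 5.43, in replicate 2 the tallest symbol (2.96) stands upstream of Myh4, and a row of low symbols in replicate 2 alone (0.243 to 0.436) lies in Myh4.

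The 5 regions of the cluster with the highest mean percentile of signal are described with their sequence, since the description of the cluster turns on them, together with the 2 strongest of each slow and cardiac locus. Sequences are of the plus strand of GRCm38, and capitals mark bases that lie in a footprint in both libraries.
chr11:67120781-67121040: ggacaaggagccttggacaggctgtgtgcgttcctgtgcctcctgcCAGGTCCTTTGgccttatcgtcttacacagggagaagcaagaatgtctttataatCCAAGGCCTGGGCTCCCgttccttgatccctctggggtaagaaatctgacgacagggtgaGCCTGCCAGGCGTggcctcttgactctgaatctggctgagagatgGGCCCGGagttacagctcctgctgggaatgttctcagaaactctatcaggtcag
chr11:67110301-67110500: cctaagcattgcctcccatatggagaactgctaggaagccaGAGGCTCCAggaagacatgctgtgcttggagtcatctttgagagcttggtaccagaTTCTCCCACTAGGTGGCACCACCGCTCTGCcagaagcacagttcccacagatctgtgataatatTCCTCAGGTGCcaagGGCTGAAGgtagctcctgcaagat
chr11:67153301-67153460: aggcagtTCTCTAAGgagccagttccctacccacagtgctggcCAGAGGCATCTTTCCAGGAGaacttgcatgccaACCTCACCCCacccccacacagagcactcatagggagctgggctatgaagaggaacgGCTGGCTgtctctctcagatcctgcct
chr11:67350501-67350660: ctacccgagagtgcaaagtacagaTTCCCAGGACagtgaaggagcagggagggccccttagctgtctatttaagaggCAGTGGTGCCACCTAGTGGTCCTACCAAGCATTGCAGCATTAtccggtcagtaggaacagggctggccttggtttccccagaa
chr11:67112101-67112300: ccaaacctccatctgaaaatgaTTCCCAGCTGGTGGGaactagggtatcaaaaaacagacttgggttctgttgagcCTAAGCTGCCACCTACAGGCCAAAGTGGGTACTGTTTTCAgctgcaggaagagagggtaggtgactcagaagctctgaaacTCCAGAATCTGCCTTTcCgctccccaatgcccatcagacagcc
chr2:155619921-155620100: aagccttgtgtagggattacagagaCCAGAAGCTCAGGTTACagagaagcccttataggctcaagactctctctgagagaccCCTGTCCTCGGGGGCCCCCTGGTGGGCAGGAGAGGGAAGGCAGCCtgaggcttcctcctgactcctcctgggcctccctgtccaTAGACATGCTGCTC
chr2:155627121-155627320: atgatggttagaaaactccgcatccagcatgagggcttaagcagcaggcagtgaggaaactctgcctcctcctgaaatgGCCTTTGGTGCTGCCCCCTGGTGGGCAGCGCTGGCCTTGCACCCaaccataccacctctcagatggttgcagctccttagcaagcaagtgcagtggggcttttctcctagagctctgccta
chr14:54939481-54939660: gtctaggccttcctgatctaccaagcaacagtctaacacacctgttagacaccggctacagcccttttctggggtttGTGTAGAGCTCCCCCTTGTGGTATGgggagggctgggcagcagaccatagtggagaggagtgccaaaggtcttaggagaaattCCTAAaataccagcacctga
chr14:54900501-54900700: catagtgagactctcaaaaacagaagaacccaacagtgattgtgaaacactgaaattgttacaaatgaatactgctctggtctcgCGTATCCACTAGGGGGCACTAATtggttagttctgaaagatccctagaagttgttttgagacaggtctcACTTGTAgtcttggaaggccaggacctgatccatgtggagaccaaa

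The strongest region of the cluster, chr11:67120781-67121040, had signals of 5.50 and 1.78, at the 97.8 and 84.6 percentiles of distal peaks. It lay 42.6 kb after the Myh3 start, within 1 kb of the start of the noncoding gene 2310065F04Rik. A neighbouring region at chr11:67119621-67119860, also within 1 kb of that start, had a signal of 2.81 in replicate 1 and no listed base in replicate 2. Further regions of this gap were high in replicate 1. Signals were 3.02 and 0.996 at 36.8 kb after the Myh3 start, 2.92 and 1.00 at 27.6 kb, and 3.31 and 1.26 at -45.4 kb from the Myh2 start. Toward Myh2, chr11:67153301-67153460 had 2.66 and 1.77 and lay at -17.6 kb from its start. The region nearest to Myh2, at -1.50 kb, was weak, with 0.775 and 0.486.

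Other regions of the cluster were higher in replicate 2. At chr11:67110301-67110500 the signals were 2.16 and 2.71, and at chr11:67112101-67112300 they were 1.90 and 2.18. In the latter a footprint of 40 and 41 bases covered a CTCF core match and reached only the edge of a MyoD type E-box. Another footprint of the same region, of 15 and 26 bases, held a whole MyoD type E-box in both libraries. At 34.7 kb after the Myh3 start the signals were 1.54 and 2.60. Inside Myh3 2 intronic regions followed the same order, with 1.07 and 1.31 at 2.10 kb after the start and 1.21 and 2.28 at 7.31 kb. The intron of Myh13 held chr11:67350501-67350660, with 1.87 and 2.55 and a footprint of 42 and 48 bases. Past the end of Myh13, 2 regions were low, with 0.775 and 0.651 and with 0.708 and 0.551.

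The myosin gene of the slow group with open chromatin in its body was Myh7b. Its region chr2:155619921-155620100 overlapped an exon and had signals of 4.15 and 4.20 (95.6 and 98.0 percentiles), the highest mean percentile, 96.8, of all 27 shared distal regions at the 3 loci. It lay at -2.91 kb from the hairpin of Mir499. Footprints touched its MEF3 match, a motif known from muscle promoters, in both libraries, and a longer footprint covered 46 and 49 bases. MEF3 was matched in 1 of 27 regions of the loci and in 2.83% of all shared distal regions, over the central 200 bases. Of the other regions in the gene, chr2:155627121-155627320 had 1.95 and 2.35, and chr2:155613521-155613680, over an exon, had 1.67 and 0.830.

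At Myh6 and Myh7 no open chromatin was called in the bodies or between them. No base from the end of Myh6 to the start of Myh7, 52.7 kb, was listed with an FDR under 0.05 in either library. The nearest shared regions lay outside, at chr14:54939481-54939660, past the end of Myh6 and within 1 kb of the start of the noncoding gene Gm49130 (1.90 and 1.68), and at -7.72 kb from the Myh7 start (0.998 and 0.395). At the outer edge chr14:54900501-54900700 had 1.44 and 2.38. The microRNAs hosted by these genes share a seed with each other that differs from that of Mir499 only in its last base. All are printed with the seed (bases 2 to 8) in capitals.
mmu-miR-208a-3p, in Myh6: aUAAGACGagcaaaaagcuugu
mmu-miR-208b-3p, in Myh7: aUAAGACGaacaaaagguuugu
mmu-miR-499-5p, in Myh7b: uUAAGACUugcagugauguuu

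Within 1 kb of the hairpins of Mir208a, Mir208b and Mir499 0 bases were listed in either library.

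**Figure D3:**
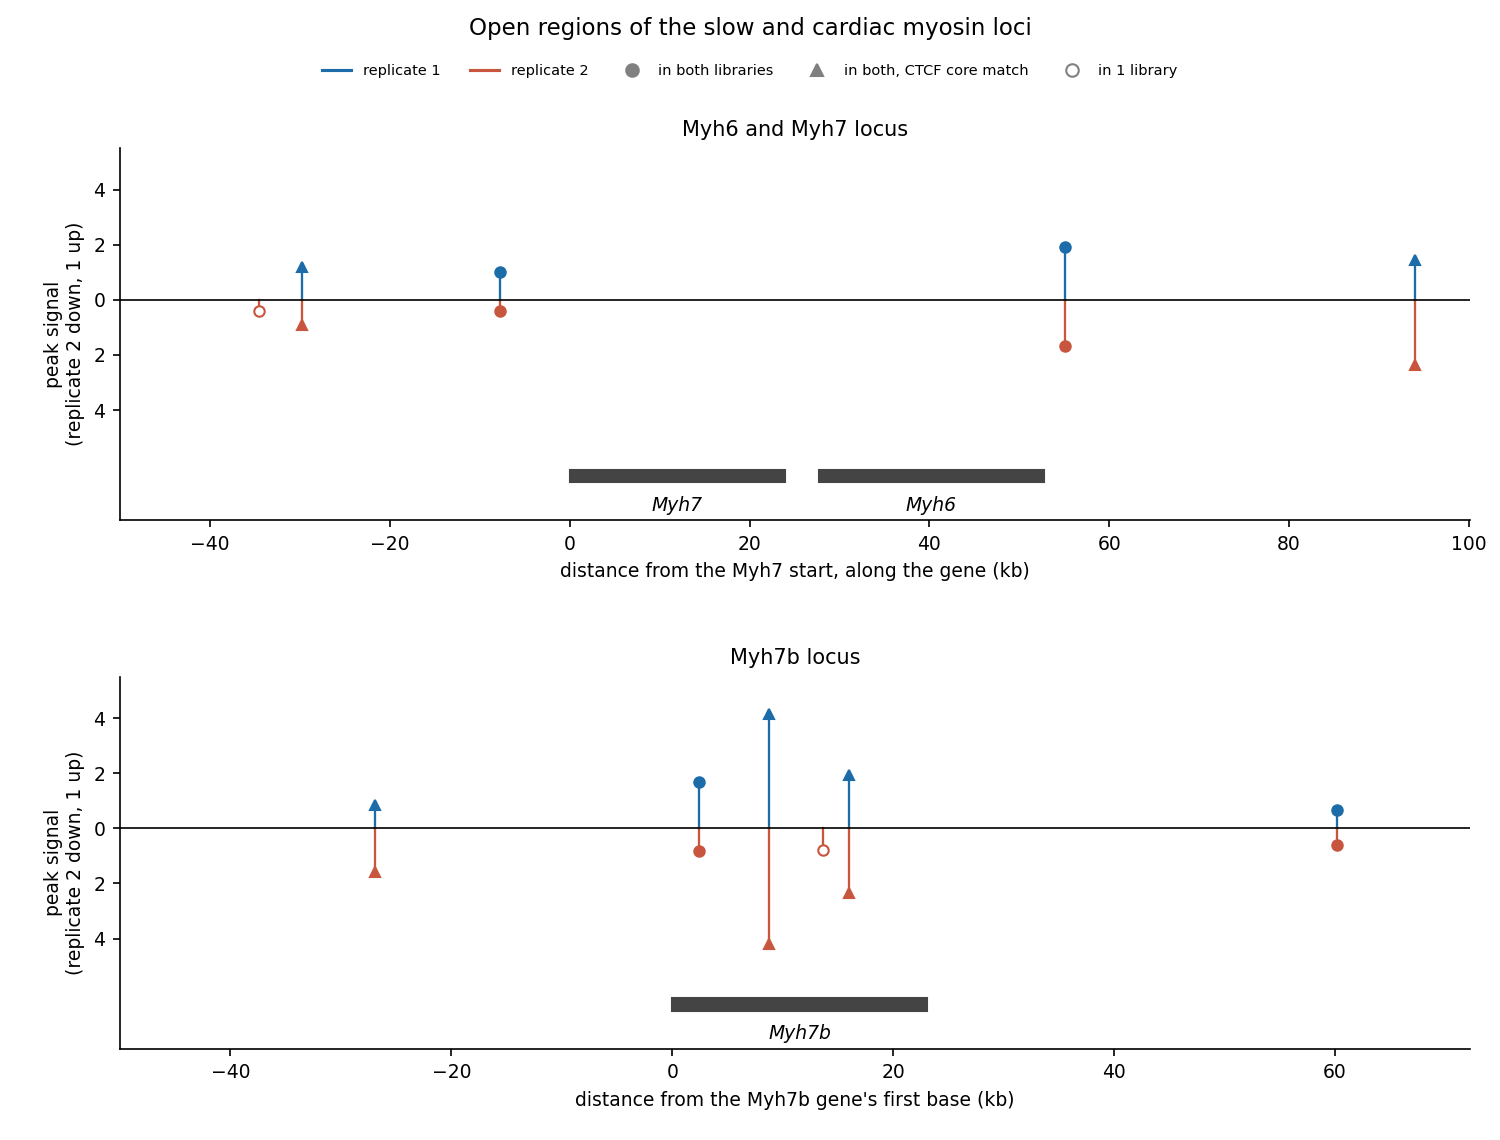
Peak signal of the strict regions at the Myh6 and Myh7 locus (top) and the Myh7b locus (bottom), by distance in kb from the Myh7 start and from the first base of Myh7b, replicate 1 upward and replicate 2 downward, with the symbols of the cluster map; promoter windows, which here belong to neighbouring genes, are left out. No symbol lies over Myh7 or Myh6, and the tallest pair (4.15 and 4.20) stands in Myh7b.

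Footprints were counted in the same regions. The 18 regions of the cluster held 61 and 69, covering 19.8% and 23.0% of their bases. The Myh6 and Myh7 regions held 11 and 9 (23.3% and 23.4% of bases) and the Myh7b regions 11 and 14 (25.6% and 32.1%). Over all 41975 shared distal regions footprints covered 18.6% and 21.8%. Median signal percentiles were 73.3 and 70.2 in the cluster, 61.3 and 72.0 at Myh6 and Myh7 and 72.7 and 81.9 at Myh7b. Over all distal regions of the cluster in replicate 2, shared or not, the median was 39.6, and 68.5 without the peaks in the Myh4 body. Over the central 200 bases, E-boxes were matched in 15 of 18 cluster regions against 75.5% of all regions, MyoD type E-boxes in 8 of 18 against 27.8%, NFAT sites in 10 of 18 against 51.7%, MAF sites and the thyroid hormone response motif in 3 of 18 each against 20.3% and 13.9%, AP-1 in 2 of 18 against 10.2%, and TEAD and the TATA box in 1 of 18 each against 13.3% and 5.23%. MEF2, CArG, MEF3 and NFI were matched in 0 of 18, against 2.38%, 0.927%, 2.83% and 0.105% of all regions. At the slow and cardiac loci E-boxes were matched in 4 of 4 regions of Myh6 and Myh7 and 3 of 5 of Myh7b, and MyoD type E-boxes in 0 of 4 and 1 of 5.

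The core motif of CTCF, a zinc-finger protein known from chromatin loop anchors, was added after the letters of the strongest regions had been seen. Over their whole length 6 of 18 cluster regions, 2 of 4 at Myh6 and Myh7 and 3 of 5 at Myh7b matched it, against 16.5% of all shared distal regions. The 4 regions of the 3 loci with a footprint of 40 or more bases in both libraries all matched. All 4 are among the regions printed above, so their letters had been seen before the motif was added. Over all shared distal regions, the longest footprint had 40 or more bases in 5.02% and 14.9% of those with a match. Without a match it did in 2.20% and 3.96%. In all but 1 of the 11 matching regions (chr11:67373381-67373580), footprints of both libraries covered the whole match of 12 bases. The share of matches covered over all regions was not computed. The ratio of replicate 1 to replicate 2 had a median of 0.808 (range 0.595 to 1.19) in the 6 cluster regions with a match and 2.04 (range 0.532 to 3.10) in the 12 without. At Myh7b it was 0.533 to 0.988 in the 3 with a match and 1.09 to 2.01 in the others. At Myh6 and Myh7 the groups overlapped, with 0.608 and 1.34 against 1.13 and 2.53. Across the genome the medians were 0.770 for the 6929 regions with a match and 1.54 for the 35046 without, so the order of the medians at the myosin loci was that of the genome. Among the regions without a match at the 3 loci, the Myh3 intron region at 7.31 kb (0.532) was the only one under 1. What sets this difference between libraries was not tested, and it bears on each fold between libraries given here.

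**Figure D4:**
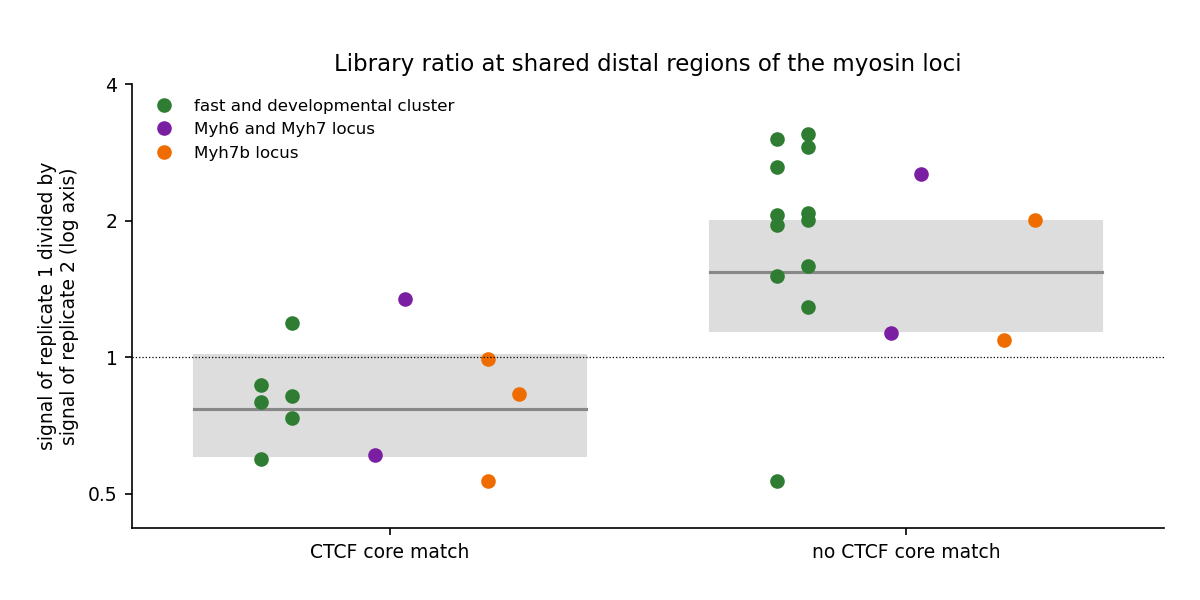
Signal of replicate 1 divided by that of replicate 2 (log axis) at the 27 shared distal regions of the myosin loci, split by a CTCF core match, with 1 point per region coloured by locus. Grey boxes span the quartiles of all shared distal regions (0.605 to 1.01 with a match, 1.14 to 2.00 without) and the line in each is the median.

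The libraries differed most at Myh4, the type IIb gene. In its body 582 and 3319 bases were listed with an FDR under 0.05, or 2.60% and 14.8% of the gene. Among 5152 genes of 20 to 50 kb these shares were at the 51.3 and 99.2 percentiles, and the difference of 12.2 percentage points was larger in 3 of those genes (median 0.212). The listed bases were concentrated in exons, at 7.50% and 32.1% of exon bases against 0.799% and 8.47% of intron bases. Exons had the higher share in both libraries in other members too, though not in Myh3 or Myh2. Shares were 4.67% and 5.13% against 1.41% and 1.54% in Myh1, 2.41% and 5.76% against 0.901% and 1.34% in Myh13, and 7.18% and 5.74% against 3.78% and 5.19% in Myh7b. In Myh4, replicate 2 had 8 strict peaks, each overlapping an exon and of low signal (0.243 to 0.436). They lay at 8.04 to 13.4 kb after the start, and replicate 1 had no listed base in any of them. The share of bases that start a unique 31-base word ran from 19.3% to 100% in these 8 peaks and was 72.3% over the exons of Myh4. The part of such repeated words in this result was not tested, nor was that of spliced copies of the gene (cDNA), which hold exons alone. Upstream, at -2.20 kb from the Myh4 start, chr11:67235741-67235920 had a signal of 2.96 in replicate 2 and 1.41 in the permissive list of replicate 1.

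The other bodies differed by at most 1.65 percentage points. Listed bases made up 3.02% and 4.67% of Myh3, 0.687% and 0.653% of Myh2, 2.25% and 2.47% of Myh1, 1.09% and 1.89% of Myh13 and 4.76% and 5.35% of Myh7b. The median of genes of 20 to 50 kb was 2.53% and 2.93%. Myh8, Myh6 and Myh7 had no listed base in either library, 3 of 9 members, against 8.66% of genes of that length. Unique 31-base words made up 89.8%, 89.1% and 86.6% of their bases, against 89.7% (Myh2) to 99.1% (Myh7b) in the other members. The part of repeated words in this absence was not tested. Exon shares of such words ran from 65.6% in Myh1 to 99.9% in Myh7b.

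**Figure D5:**
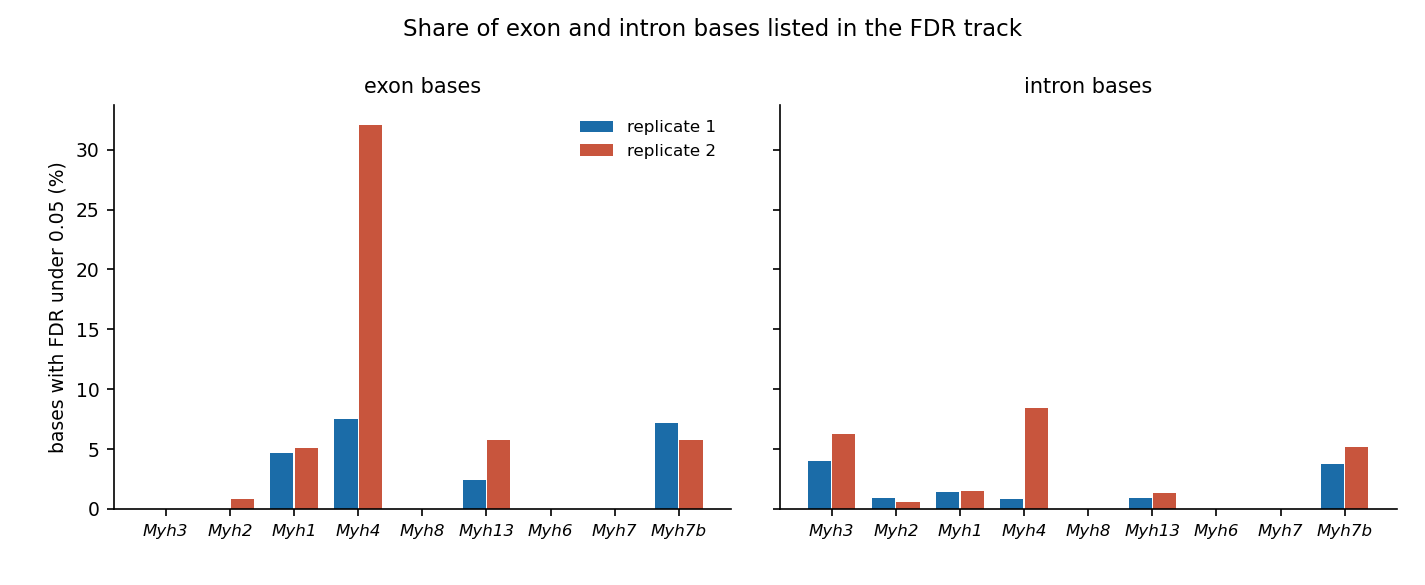
Percent of exon bases (left) and intron bases (right) of each gene listed with an FDR under 0.05, as 1 bar per library. The exons of Myh4 in replicate 2 stand out at 32.1%, and Myh8, Myh6 and Myh7 have no bar.

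Like Myh3, other genes had no promoter peak in either library and shared distal regions within 50 kb. Outside the loci, the 5 with the most such regions, all with more than Myh3, were Kdm6b (19 regions), Tln2 (18), Smim24 (17), Hils1 (16) and Hist1h1d (14), among 7269 genes without a promoter peak, whose mean was 1.48. In all, 65 such genes had more regions than Myh3. With 9 regions, Myh3 stood at the 98.7 percentile of those genes and Myh2, with 7, at the 96.4 percentile.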

How the data were processed

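DNase-seq was analysed in 2 libraries of 1 group from the peaks, footprints and FDR per base that were deposited on build mm10 (GRCm38). Peak signal is the authors' deposited value, and its scaling is not stated. The p-values used are the FDR per base deposited by the authors, listed under 0.05, and the constant footprint threshold of 0.01. Peaks were called in each library alone, per the notes deposited with each sample, and the aligner and callers were not given in the sources used here. Library depth is unknown, so no counting intervals are given. Each library had 2 peak lists, of which the shorter (strict) one is the main and the longer (permissive) one an alternative.

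Genes came from GENCODE M21, all transcripts. Regions were merged strict peaks and were shared when both libraries overlapped by 1 base. Percentiles are within a library. Unique 31-base words and region sequences came from GRCm38, promoter and microRNA sequences from RefSeq GRCm38.p6. Motifs were searched on both strands in 300-base promoters and in the central 200 bases of regions. Python 3.11.15, numpy 2.4.6 and pandas 2.3.3 were used, and region counting was tested on simulated peaks. Alternatives were promoter windows of 250 and 2500 bases, basic starts, distal regions within 20 or 100 kb, permissive peaks, peaks at or above the median signal, 50% overlap, each library alone, whole footprints and unique bases as denominator. Noncoding promoter windows, the CTCF core motif and replicate 2 without peaks in the Myh4 body were added after the data were seen.

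The members, gene lists and motifs were chosen with earlier results of these data known. Named are all 9 members, up to 5 regions per locus by mean percentile, up to 3 genes with the highest promoter percentile and up to 2 without a peak per list, and the 5 genes with no promoter peak and the most distal regions. Other genes or regions named were chosen after their values were seen. A result that the naming rule would include is not reported here.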

Additional observations from a re-analysis of the deposited data

How the results depend on the processing

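No paired analysis was possible because the libraries form 1 group. The number of members with a promoter peak in both libraries, 1, became 4 with a window of 2500 bases, 4 in the permissive lists and 0 when peaks below the median signal were left out, and was 1 to 2 in a single library. The 18 shared regions of the cluster became 29 in the permissive lists (7.50 per 100 kb) and 10 among peaks at or above the median (2.59 per 100 kb), with 3.10 per 100 kb at 50% overlap, and single libraries gave 23 to 32 regions (5.95 to 8.28 per 100 kb), the higher values in replicate 2. Their footprints, 65 on average, became 37 at or above the median and 42 at 50% overlap, and were 60 to 97 in single libraries. Their median percentile of 71.8 became 65.0 within 100 kb, 77.1 in the permissive lists and 76.7 at 50% overlap, and was 39.6 to 69.3 over all regions of a single library, lowest in replicate 2, where it was 68.5 with the peaks in the Myh4 body left out, an alternative chosen after seeing the data. The 9 regions of the slow and cardiac loci became 5 within 20 kb, 17 within 100 kb and 4 at or above the median (1.47 per 100 kb). Their footprints, 22.5 on average, became 13, 47 and 13 under the same settings, and their percentile, 74.0, was 60.9 to 66.1 in a single library. The percentile of Myh3 by distal regions, 95.0, was 74.9 within 20 kb, 97.3 within 100 kb, 94.4 in the permissive lists, 96.9 at or above the median, 83.2 at 50% overlap and 93.1 to 93.6 in a single library. No setting run put the density of shared regions outside promoter windows lower in the cluster than at the slow and cardiac loci together. No setting counted the regions in promoter windows, and with them the order was reversed. Shared regions of every kind numbered 20 in the 386 kb of the cluster, against 10 in 150 kb at Myh6 and Myh7 and 11 in 122 kb at Myh7b. The percentile of Myh4 and of Myh8, 33.9, was 91.6 in replicate 2 alone. For single members, each pair of a member and a setting was compared with the spread of the libraries. Promoter signals moved beyond it in 8 pairs and not in 37, and ranks by distal regions moved in 37 and not in 28. For members without a strict promoter peak this spread was 0, so any change of promoter signal counted as moved. By this rule a promoter signal could not move in a single library. The cause was not tested. With 2 libraries and no read totals, differences between them have no error of their own.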
